A study of Caenorhabditis elegans with 2 samples.

Results

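The cuticle collagens are the genes of the worm's outer coat, and they were taken here by symbol: every gene of the deposited table whose name starts with col- (159 genes) and 18 collagen genes that carry the name of a mutant body shape, which are rol-6, sqt-1, sqt-2, sqt-3, bli-1, bli-2, lon-3 and dpy-2, dpy-3, dpy-4, dpy-5, dpy-7, dpy-8, dpy-9, dpy-10, dpy-13, dpy-14 and dpy-17. This gave 177 of the 46739 genes in the table. The RNA came from gonads dissected by hand from adult Caenorhabditis elegans hermaphrodites a day after the last larval stage, L4. YBT7 worms carry the alleles deg-1(huj32) and linc-20(huj2) and the rearrangement hujCf1, in which Cas9 cuts split both X chromosomes into an internal segment and a linear segment made of the chromosome ends, and the strain was outcrossed to wild type after its isolation from injected worms, so that it stands for a single line. WT worms are the N2 strain. Each strain gave 1 library, and the number of worms pooled in each is not given in the sources used here. The study compared these transcriptomes to ask which regions of the X segments are expressed in the YBT7 gonad.

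The cuticle is a layered extracellular coat that the epidermis secretes and renews at each molt. Its collagens are short proteins with interrupted Gly-X-Y repeats that form trimers, are hydroxylated and folded in the endoplasmic reticulum, trimmed by proteases after secretion, and then cross-linked. The genes are known for waves of expression within each molting cycle, for sets that serve only 1 stage such as the adult, and for mutants that are short and fat (Dumpy), long, blistered, or that roll about their long axis. In the whole animal their transcripts are assigned mainly to the epidermis, and the gonad is not known as a source of cuticle.

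The YBT7 library held 4525439 counts and the WT library 2873065, and counts were divided by size factors to give normalized counts, on which 1 read is worth 0.816 in YBT7 and 1.22 in WT. A gene was measured if the mean of its normalized counts was above 5, and it was called higher or lower in YBT7 if the size of its log2 fold passed a limit that shrinks with abundance (1 plus 5 divided by the root of that mean), the rule given in the study's methods. With 1 library per strain there is no test and no p-value, and all intervals are 95% intervals for the counting of reads alone, with no variation between worms. Of the 8618 genes measured, 9.55% were called higher and 1.25% lower. Gonad transcripts were present in both libraries. All 16 markers of germline and oocytes were measured, as were 5 of 9 markers of the somatic gonad (sheath, spermatheca, distal tip), and none of them was called. These values do not show that the dissections held gonad alone. In YBT7 the intestine markers had 50700 counts and the germline and oocyte markers 52639, against 2814 and 40706 in WT. The deleted noncoding gene linc-20 had 0 counts in YBT7 and 4 in WT, too few to check the label of the YBT7 sample, whose source field also holds the words wild type.

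The collagen family as a whole was 8.16-fold more abundant in the YBT7 gonads. Summed over all 177 genes, measured or not, it had 33499 counts in YBT7 and 2736 in WT. This is 7402 CPM (counts scaled by the library total) in YBT7, with an interval of 7323 to 7482, against 952 CPM in WT (917 to 989), or 0.740% of the YBT7 library and 0.0952% of the WT library. The interval of the ratio of normalized sums was 7.85 to 8.49. In bulk RNA a change in the number of collagen-expressing cells and a change in RNA per cell cannot be told apart.

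Most of the family had few or no reads in both libraries. No read fell on 62 of the 177 genes, 37 more had 1 or 2 counts in all, and 33 had at least 3 counts but a mean of 5 or less. The remaining 45 were measured. At least 1 count was seen for 99 collagens in YBT7, the deeper library, and for 85 in WT. Over all genes of the table the numbers were 14188 in YBT7 and 12356 in WT, a similar proportion. The 132 genes that were not measured had 133 counts together in YBT7 and 78 in WT, a ratio of 1.14 with an interval (0.853 to 1.52) that includes 1.

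Of the 45 measured collagens, 23 were called higher in YBT7 (51.1%, against 9.55% of all genes measured), 4 were called lower (8.89%, against 1.25%) and 18 were not called. The median log2 fold of the 45 was 2.22, against -0.030 over all genes measured, and the values ran between -3.58 and 4.28. The threshold on the mean admitted 3 of the 45 only through their YBT7 value (col-43, col-76 and col-158) and 7 only through their WT value. Among the 42 whose WT normalized count alone was above 5, 22 were called higher and 4 lower. The 23 called higher held 97.8% of the family's counts in YBT7 and 83.6% in WT.

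**Figure D1:**
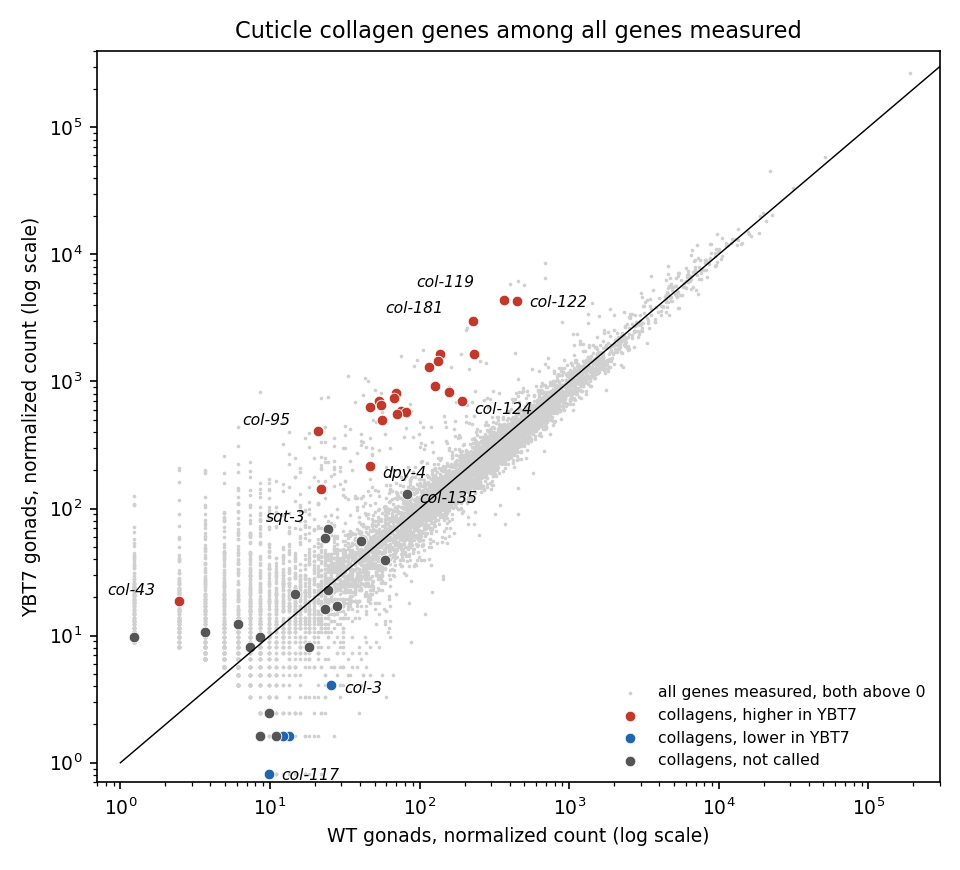
Normalized counts of each gene in YBT7 gonads (vertical axis, log scale) and in WT gonads (horizontal axis, log scale), with grey dots for all measured genes above 0 in both libraries and larger points for the 45 measured collagens by call. The collagens with high counts stand well above the diagonal of equal levels, with the highest, col-119, at 4412 in YBT7 and 367 in WT, while the 4 called lower lie at the bottom left, under 26 in either library.

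Read by the WT value, collagens with more reads in WT were called higher more often, among those above 5 normalized counts in WT. The WT value holds no YBT7 count, though the limit for a call does. Of the 20 collagens above 50 normalized counts in WT, 18 were called higher and none lower, while 1.69% of all genes above that level were called higher. The other two were col-135 and col-129. Between 20 and 50 in WT, 4 of 11 collagens were called higher and 1 lower (8.22% and 4.06% of all genes), and between 5 and 20 none of 11 was called higher and 3 were called lower (12.4% and 2.31% of all genes). At 5 or less in WT, where only the YBT7 value admits a gene, 1 of 3 collagens was called higher (49.3% of all genes). The mean over both libraries cannot be read in this way, since it holds the YBT7 count: all 20 collagens with a mean above 200 were called higher, but 4 of them were above 200 in WT.

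The most abundant collagens in YBT7 were also among the most abundant in WT. On chromosome IV, col-119 (WBGene00000693, WBcel235 IV:8978823-8979812, 1 exon) had 5403 counts in YBT7 and 300 in WT, and col-122 (WBGene00000696, IV:9563360-9564471, 2 exons) had 5292 in YBT7 and 363 in WT. The third, col-181 (X:12104930-12106081, 2 exons), had 3658 counts in YBT7 and 186 in WT. Counts were not divided by exon length, since the library was primed from poly(T) and reads need not grow with length. The folds of col-119, col-122 and col-181 were 12 (10.7 to 13.5), 9.72 (8.74 to 10.8) and 13.1 (11.3 to 15.3) in that order. By normalized count among all genes measured, col-119 ranked 136 in YBT7 and 2003.5 in WT, and col-181 ranked 179 in YBT7 and 2971 in WT.

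Below these, col-143 (V:6835635-6836700) had 2019 counts in YBT7 and 112 in WT, and col-160 (V:13200982-13202189) had 2005 in YBT7 and 188 in WT. On the internal X segment, col-184 had 1780 counts in YBT7 and 109 in WT, and col-178 had 1582 in YBT7 and 94 in WT. These genes are named for their sequence and carry no mutant phenotype name, so no single role is given for them here. The 2 genes of highest mean made up 31.9% of all collagen counts in YBT7 and 24% in WT, the 5 highest 54.9% in YBT7 and 42% in WT, and the 20 highest 96.4% in YBT7 and 81.4% in WT. The 157 genes outside those 20 together had 1211 counts in YBT7 and 508 in WT, a 1.59-fold difference (1.43 to 1.77).

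The order of the collagens was much alike in both libraries. Of the 20 genes with the highest normalized counts in YBT7 and the 20 highest in WT, 18 were shared, and of the 10 highest in each, 9 were shared. Over the 23 collagens called higher, Pearson's r of the log2 normalized counts between YBT7 and WT was 0.94 and Spearman's rho 0.85, and over all 45 measured they were 0.83 and 0.88. These correlations run across genes of 2 libraries, and genes are not independent replicates, so they describe the order only. The 23 were picked by their ratio, which narrows the spread of folds among them, and no such value is given here for all genes.

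Folds within the called set differed by more than the counting of reads. Among the 23, the fold ran from 3.64 for col-124 to 19.5 for col-95, with a median of 9.72, and 19 of them lay between 6 and 16. The interval held the family's summed fold for 8 genes, lay above it for 12 and below it for 3. The largest ratio was that of col-95 (III:11703979-11705085), with 497 counts in YBT7 and 17 in WT (12 to 33.7). At the other end, named after their values were seen, col-93 had 1005 counts in YBT7 and 129 in WT (5.19-fold, 4.32 to 6.29), and col-124 had 852 in YBT7 and 156 in WT (3.07 to 4.35). The third with an interval below the summed fold was dpy-4.

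**Figure D2:**
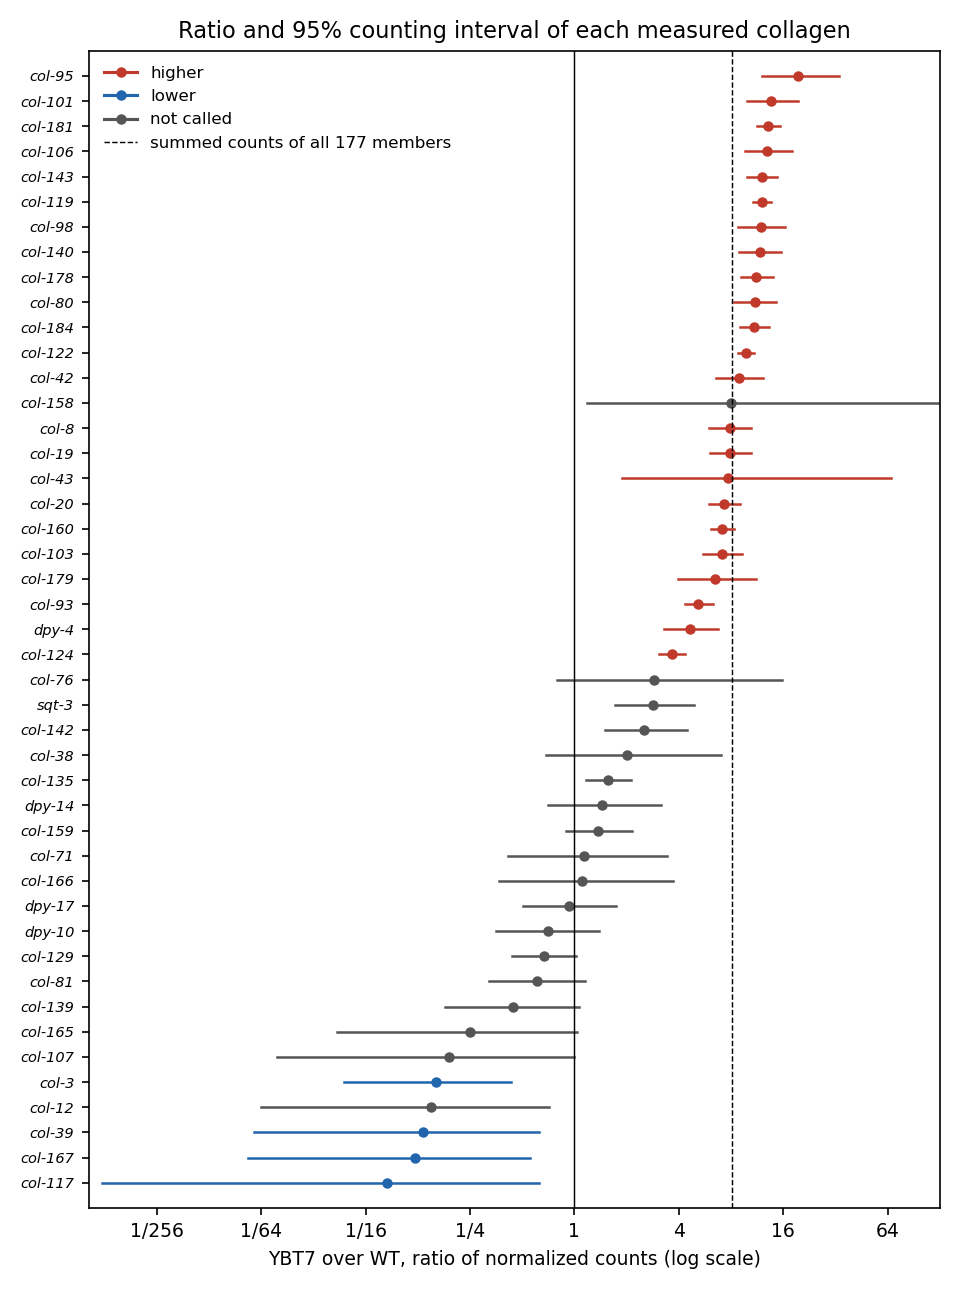
Ratio of normalized counts, YBT7 over WT (horizontal axis, log scale), of each of the 45 measured collagens, with bars for the exact 95% interval of counting. The solid line marks equal levels and the dashed line the 8.16-fold ratio of all members summed, near which most of the 23 genes called higher lie. The bar of col-158 (12 counts in YBT7 and 1 in WT) runs past the right edge.

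The collagens with named mutant phenotypes, which build the structures of the cuticle that can be seen in the microscope, had few reads, as most of the family did. Of the 18, 7 had no read in either library (55 of the 159 col- genes had none), 11 (these included) had fewer than 3 counts in all, and 5 were measured (40 of the 159 col- genes were). Together they had 437 counts in YBT7 and 112 in WT (2.60-fold, 2.11 to 3.23), against 33062 in YBT7 and 2624 in WT for the col- genes (8.40-fold, 8.07 to 8.74). Of the 437 YBT7 counts 265 came from dpy-4, and without it the others had 172 counts in YBT7 and 74 in WT (1.55-fold, 1.17 to 2.06).

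The 6 furrow collagens form the circumferential furrows between the annuli, and their loss is known to set off stress responses in the epidermis. They summed to 31 counts in YBT7 and 22 in WT, a ratio of 0.939 (0.527 to 1.70), so no difference was detectable at this depth. The only one measured was dpy-10, with 20 counts in YBT7 and 19 in WT (log2 fold -0.51), which shares exons with another gene on the same strand, T14B4.19. For dpy-7 there were 5 counts in YBT7 and 2 in WT, for dpy-2 there were 2 in YBT7 and 1 in WT, and dpy-8 and dpy-9 each had 2 in YBT7 and 0 in WT. No read was counted for dpy-3, and the floor of 3 counts taken as the limit of a count of 0 is 0.663 CPM in YBT7 and 1.04 CPM in WT.

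The other annulus and body shape collagens set the length and girth of the worm. Only dpy-4 (IV:14985543-14986782) was called, with 265 counts in YBT7 and 38 in WT (4.65-fold higher, 3.30 to 6.72). The gene sqt-3, whose product is needed from the embryonic cuticle onwards and is processed by the protease DPY-31, had 85 counts in YBT7 and 20 in WT (2.83-fold, 1.73 to 4.87), which stayed inside the limit for a call. Its partner in that processing, dpy-17, had 28 counts in YBT7 and 20 in WT (log2 fold -0.10), and dpy-14 had 26 in YBT7 and 12 in WT (log2 fold 0.53). There was 1 count of dpy-5 in YBT7 and 0 in WT, and none in either library of dpy-13 or of lon-3, whose loss makes long worms.

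The roller collagens rol-6, sqt-1 and sqt-2, whose mutations twist the body, had 0 counts in both libraries. The strut collagens, which hold the layers of the adult cuticle together and whose loss causes blisters, were as scarce, with 1 count of bli-1 in YBT7, 0 in WT and none of bli-2. The transmembrane collagen col-99 had 1 count in YBT7 and 0 in WT.

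Of the genes used as stage reporters, only the adult one was abundant. The adult reporter col-19 (X:421707-422776) had 719 counts in YBT7 and 61 in WT and was called higher (7.86-fold, 6.05 to 10.4). The larval reporter col-17 had 1 count in YBT7 and 0 in WT, and the dauer collagen col-2 had 1 in each library. There was no count of col-10 in YBT7 and 1 in WT, and none of col-13 in either, while col-12 had 2 counts in YBT7 and 9 in WT and was not called (log2 fold -2.75). The collagens linked to long life in the worm were also at the floor, since col-120 had 0 counts in both libraries and col-144 had 0 in YBT7 and 1 in WT.

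**Figure D3:**
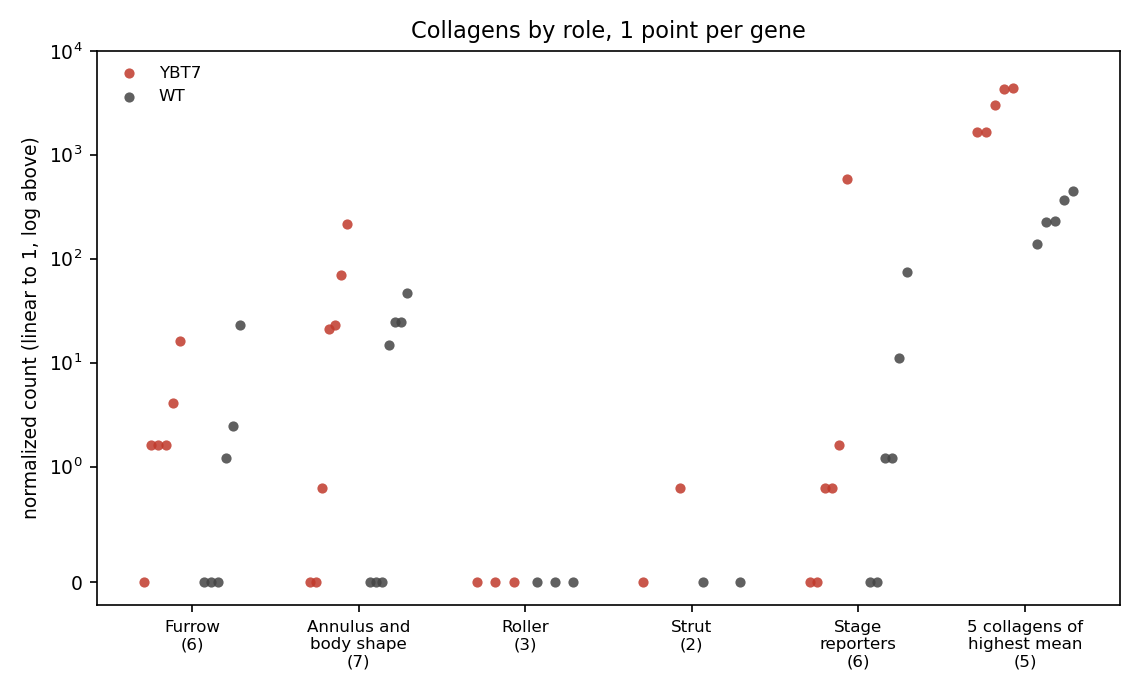
Normalized counts of single collagens (vertical axis, linear up to 1 and logarithmic above), 1 point per gene, by role, with YBT7 in red to the left of WT in grey. Roller and strut collagens lie at or near 0 in both libraries, and furrow collagens overlap between them. The 5 collagens of highest mean over both libraries lie at 1637 or more in YBT7 and at 444.6 or less in WT. That mean holds the YBT7 count, so the choice of these 5 itself favours such a gap.

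The 4 collagens called lower were scarce, with 10 counts together in YBT7 and 50 in WT (7.5-fold lower, 3.76 to 16.6). They were col-3 with 5 counts in YBT7 and 21 in WT, col-117 with 1 in YBT7 and 8 in WT, col-39 with 2 in YBT7 and 10 in WT, and col-167 with 2 in YBT7 and 11 in WT. The ratio of YBT7 to WT was 0.159 for col-3 (0.0468 to 0.433), 0.0833 for col-117, 0.133 for col-39 and 0.121 for col-167, and the upper ends of all 4 intervals were at or below 0.626. These calls were not firm: with a minimum mean of 10 or a pseudocount of 1 the call of col-3 alone remained, and with YBT7 counts thinned to the WT total that of col-39 alone, which was lost in turn with TMM, upper quartile and autosomal scaling. Genes of sperm moved in the same direction, as 5 of 8 measured sperm markers were called lower, against 1.25% of all genes measured. The sperm list had 66 counts in YBT7 and 211 in WT. The part of sperm RNA in the 4 collagens called lower was not tested.

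Among the 18 measured collagens that were not called, summed counts were 605 in YBT7 and 322 in WT (1.25-fold, 1.09 to 1.44). Named after their values were seen, col-135 had 158 counts in YBT7 and 67 in WT (1.57-fold), col-159 had 68 in YBT7 and 33 in WT (1.37-fold), and col-129 had 48 in each library, a ratio of 0.667 (0.437 to 1.02). In WT these genes were at levels like those of several collagens called higher: col-129 and col-101 had 58.8 and 46.5 normalized counts in WT, while in YBT7 they had 39.2 and 635.

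Collagens called higher and collagens with almost no reads were found side by side in the genome. There were 31 pairs of collagens less than 5000 bp apart, which took in 53 of the 177 genes, and in 5 pairs both genes were measured. In 1 of these both were called higher (col-178 and col-179, X internal segment, with 175 counts in YBT7 and 18 in WT for col-179), in 1 both were called lower (col-117 and col-3, 629 bp apart), and in 1 the calls were opposite, though these 3 lower calls are among those lost under other settings. That pair, col-39 and col-80, lies 1182 bp apart on the same strand of chromosome II: col-39 had 2 counts in YBT7 and 10 in WT, and col-80 had 903 in YBT7 and 55 in WT. On its other side, 673 bp away, bli-1 had 1 count in YBT7 and 0 in WT.

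Of the 9 collagens called higher that have a collagen neighbour, 7 had none that was called higher, where 13% of all members were called higher and most had too few reads for a call. On chromosome II, col-20 (1136 counts in YBT7 and 104 in WT) lies between col-17 (1 in YBT7 and 0 in WT) and col-73 (1 in each). On chromosome III, col-93 lies between col-92, with no count, and col-94, with 2 in YBT7 and 1 in WT. On X, col-184 lies 1651 bp from col-183, which had 1 count in YBT7 and 0 in WT.

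The collagens called higher were short genes, as most of the family are. Their median exonic length was 1004 bases (870 to 1417), against 1101.5 for those measured and not called (906 to 2098) and 1023 for all 177 genes. The median number of exons was 2 for those called higher (1 to 3), 3 for those measured and not called (1 to 6) and 2 for all members, and the median span was 1105, 1353 and 1194 bases in the same order. No test was made of these differences. The annotation lists 174 of the 177 as protein coding and 3 as pseudogenes. Exons of 6 of the 23 overlap another gene: col-160 overlaps col-159 on its own strand, and col-143, col-124, col-103, col-8 and col-179 overlap a gene on the other strand. The single values of these 6 are less certain than the others, and without all members that overlap another gene 17 of 35 were called higher, the median log2 fold was 1.53 and the summed fold 8.67.

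By chromosome, the summed fold was above 5 on all but chromosome I. The 24 collagens of chromosome I were the scarcest, with 47 counts in YBT7 and 19 in WT, and only dpy-14 among them was measured. The ratio was 6.04 on II (31 genes), 7.29 on III (13 genes), 8.16 on IV (45 genes) and 7.67 on V (33 genes). Chromosome IV held the most, with 14386 counts in YBT7 and 1176 in WT. The 31 X-linked collagens had 7952 counts in YBT7 and 511 in WT (10.4-fold, 9.49 to 11.4), against 25547 in YBT7 and 2225 in WT for the 146 autosomal ones (7.65-fold, 7.33 to 8.0). The higher level in YBT7 was thus shared by the autosomal and the X-linked members of the family.

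Of the 8 measured X-linked collagens 5 were called higher and 1 lower, where 18.8% of the 1049 measured X-linked genes were called higher and 2.29% lower. The 4 measured on the internal segment (col-178, col-179, col-181 and col-184) were all called higher, and the 16 collagens there had 7207 counts in YBT7 and 414 in WT (11.6-fold, 10.5 to 12.8). On the linear segment 15 collagens had 745 counts in YBT7 and 97 in WT (5.12-fold, 4.14 to 6.39), and col-19 alone gave 719 of those YBT7 counts and 61 of those WT counts. The other measured genes of the linear segment were col-166, with 10 counts in YBT7 and 6 in WT, col-165, with 3 in YBT7 and 8 in WT, and col-167. Whether the segments differ was not tested, as each has few expressed collagens.

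No gene of the machinery that makes collagen was called. Of 10 measured genes for folding and modification none passed, with a median log2 fold of 0.070 and 5423 counts in YBT7 against 4059 in WT (ratio 0.891, 0.855 to 0.928). Among them pdi-2, the beta subunit of prolyl 4-hydroxylase, had 1685 counts in YBT7 and 1177 in WT, and dpy-18, an alpha subunit, had 71 in YBT7 and 41 in WT. Both enzymes have uses beyond the cuticle. Of 8 measured genes for processing, cross-linking and secretion none was called either (median -0.049, 2544 counts in YBT7 and 2033 in WT). The summed ratio of this list was 0.834 (0.787 to 0.885). Most of its abundant genes were somewhat lower in YBT7 by normalized counts, with intervals below 1. The proprotein convertase bli-4 had 555 counts in YBT7 and 487 in WT (ratio 0.760, 0.671 to 0.860). The ratio was 0.755 for skpo-1, 0.779 for sec-23 and 0.633 for sec-24.2. Among the abundant ones only dpy-11 was higher in YBT7 (interval 1.05 to 1.37). The ones that are more particular to the epidermis had few reads: the astacin protease dpy-31 had 21 counts in YBT7 and 4 in WT, the dual oxidase bli-3 had 12 in YBT7 and 3 in WT, and the peroxidase mlt-7 had 11 in YBT7 and 1 in WT, all below the limit for a call. Their ratios were above 1, at 3.5 for dpy-31, 2.67 for bli-3 and 7.33 for mlt-7. The lower ends of the intervals were 1.18, 0.720 and 1.07 in that order. They thus lay on the same side as the collagens called higher, unlike most of the abundant genes. In the folding list, single ratios ran from 0.667 for fkb-5 (0.449 to 0.991) to 2.92 for fkb-3 (1.33 to 7.28).

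Other proteins of the cuticle and of collagen sheets gave few calls. Of 43 cuticlins and other cuticle proteins 6 were measured. The apical matrix gene noah-1 was called higher with 18 counts in YBT7 and 1 in WT, and the cuticlin gene cut-2 was called lower with 11 in YBT7 and 42 in WT (ratio 0.175). Of 7 collagens outside the rule, 4 were measured and 1 was called, mec-5, a collagen needed for touch sensation, with 27 counts in YBT7 and 2 in WT. The basement membrane collagens let-2 (344 in YBT7 and 100 in WT, 2.29-fold) and emb-9 (176 in YBT7 and 52 in WT, 2.26-fold) were not called, nor was cle-1 (129 in YBT7 and 100 in WT, ratio 0.860). The whole list had a ratio of 1.79 (1.55 to 2.08).

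No regulator of cuticle genes was called among the 6 measured of 12 listed (median log2 fold -0.25). Of these 6, lin-26, nhr-23, elt-1 and elt-3 are also in the list of epidermis markers below, so the lists are not separate observations. The molting receptor nhr-23 had 128 counts in YBT7 and 104 in WT, and lin-29, the zinc finger factor that turns on adult collagens in the epidermis, had 9 in YBT7 and 7 in WT. The epidermal GATA factor elt-3 had 22 counts in YBT7 and 3 in WT (4.89-fold, with a lower end of 1.47), inside the limit for a call. Transcripts of many regulators are scarce, and 6 of the 12 were not measured at this depth.

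**Figure D4:**
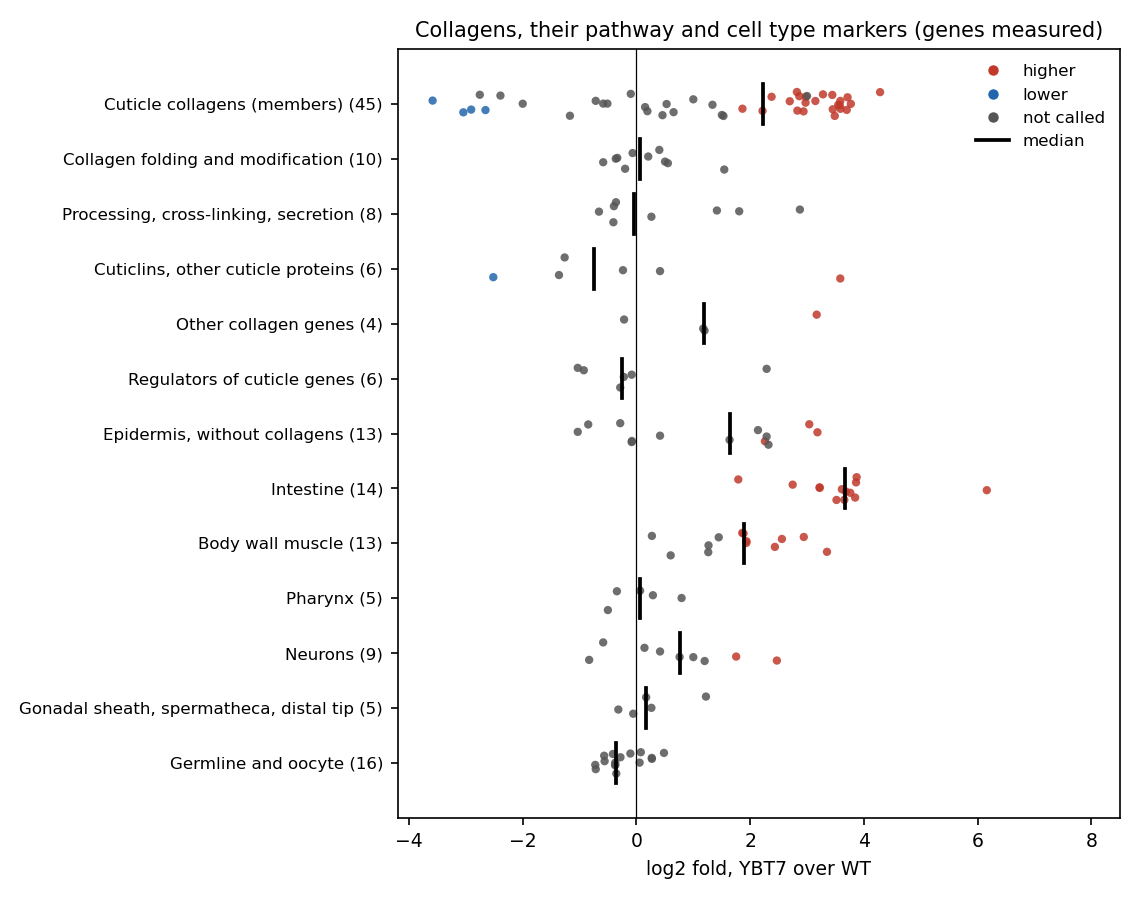
Log2 fold of YBT7 over WT (horizontal axis) of the measured genes of each list, with the number measured in brackets, points by call and a bar at the median. The collagens (median 2.22) and the intestine markers (median 3.67) lie to the right, while the medians of collagen folding (0.070) and processing (-0.049) genes lie near 0, with single genes such as mlt-7 (2.87) and fkb-3 (1.54) to the right. One intestine gene, ges-1, with 15 counts in YBT7 and 0 in WT, has no finite fold and no point.

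Markers of intestine, and part of those of body wall muscle and epidermis, were also called higher, while those of pharynx were not. Over all genes measured, 9.55% were called higher. In the epidermis, the tissue known to make cuticle, 13 of 26 markers other than collagens were measured, of which 3 were called higher (grd-3, ifb-1 and grl-4), none lower and 10 were not called. Their median log2 fold was 1.64, and 5 of the 13 had a ratio below 1, among them elt-1 with 11 counts in YBT7 and 15 in WT and vab-10 with a ratio of 0.946. The hedgehog-related gene grd-3 had 218 counts in YBT7 and 16 in WT (9.08-fold), the intermediate filament gene ifb-1 had 79 in YBT7 and 11 in WT, and the ground-like gene grl-4 had 74 in YBT7 and 6 in WT. The list as a whole had 1105 counts in YBT7 and 516 in WT (1.43-fold, 1.28 to 1.59). Of these lin-26, also listed among the regulators, had 300 in YBT7 and 212 in WT (log2 fold -0.084). Most of the WT counts of the list came from lin-26, vab-10 and nhr-23 (ratio 0.821), all with ratios below 1. The summed fold therefore says little about the scarcer markers. Among the other measured markers, the ratio ran from 0.489 for elt-1 to 9.08 for grd-3. The epidermal genes wrt-2 and wrt-8 were at 0 in both libraries.

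All 14 measured intestine markers, of 16, were called higher, and the list had 50700 counts in YBT7 and 2814 in WT (12-fold, 11.6 to 12.5). Of 13 measured body wall muscle markers 8 were called higher (8825 counts in YBT7 and 1378 in WT, 4.27-fold). Of 9 measured neuron markers 2 were called higher (2003 in YBT7 and 1140 in WT, 1.17-fold). Most of these neuron counts were of snb-1, with 1596 in YBT7 and 965 in WT (1.10-fold). The 3 coelomocyte markers had 22 counts in YBT7 and 0 in WT. None of 5 measured pharynx markers was called (272 in YBT7 and 173 in WT, 1.05-fold). Markers of the gonad itself had a ratio of 1.03 for the sheath, spermatheca and distal tip (1496 in YBT7 and 967 in WT) and of 0.862 for germline and oocyte (52639 in YBT7 and 40706 in WT). The part of RNA from such tissues in the collagen counts was not tested, and with 1 dissection per strain it and the genotype cannot be told apart.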

How the data were processed

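Gonad RNA of YBT7 and WT worms, 1 library each, was reverse transcribed from a poly(T) primer that also held a T7 promoter and a molecular identifier, and was amplified with T7 polymerase. That primer also carried the sequence matched by a primer of the final amplification. Reads are therefore taken to lie near the poly(A) end of transcripts. The authors' tools were cutadapt 1.12 for trimming, TopHat2 2.1.1 for alignment (genome WBcel235), HTSeq 0.6.0 at default settings for the count of each gene, and DESeq2 1.12.4. Whether identifiers were collapsed is not given in the sources used here. The deposited raw counts of 46739 genes were used. The authors' normalized values, fold changes and decisions stand in other columns and were not used. Default counting leaves out reads that map to several places or to overlapping genes, so near-identical collagens can lose reads and their single values are uncertain. Sequence identity between members was not analysed here.

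Size factors were the median of ratios over 10603 genes (1.22 in YBT7 and 0.816 in WT). Totals were 4525439 counts in YBT7 and 2873065 in WT, so 3 counts, the floor used, are 0.663 CPM in YBT7 and 1.04 CPM in WT. A count of 0 in 1 library counted as past the fold limit. Intervals of ratios were exact conditional (Clopper-Pearson) and those of sums exact Poisson, at 95%, and they cover counting error only. Exons came from Ensembl release 115 of WBcel235, which has all 177 members, and the coordinates printed are those of the deposited table. Segments of X were taken from the borders in the study's methods.

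Members and gene lists were chosen with earlier results of these data known. The named genes are all members with symbols other than col-, those with a listed role, those called lower, the 15 called higher whose intervals start highest, the 8 with the highest YBT7 values, measured X-linked members, and up to 4 called genes of each pathway list. All others named were chosen after their values were seen. Of 13 genes listed for processing and secretion 11 were in the table. The calling steps were tested on simulated data. Alternatives were TMM and upper quartile factors from edgeR (version 4.0.16), total counts, autosomal size factors, thinned YBT7 counts, other minimum means and fold limits, a pseudocount, and subsets of members. Scripts ran in Python 3.11.15 (numpy 2.4.6, pandas 2.3.3, scipy 1.17.1, matplotlib 3.10.9) and R 4.3.3.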

Additional observations from a re-analysis of the deposited data

How the results depend on the processing

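Under 14 alternatives the number of collagens called higher ran from 17 to 30 (23 in the report), and the median log2 fold, where it could be recomputed, from 1.0 to 2.85 (2.22 in the report). All 4 other scalings called the same 23 genes. The call of col-43, with 23 counts in YBT7 and 2 in WT, was lost with thinned YBT7 counts and with a pseudocount of 1, and that of col-124 with a fixed 4-fold limit. The summed fold of 8.16 was 7.77 with total counts, 6.35 without the 5 members of highest mean, and 8.67 without members that overlap another gene, a choice made after seeing the data. The number called lower (4) was 1 with YBT7 counts thinned to the WT total, 1 with a minimum mean of 10, 1 with a pseudocount of 1, 9 with no minimum mean and 8 with a fixed 2-fold limit. The cause of these moves was not tested, beyond that fewer or more scarce genes enter. No direction reversed. Of 174 values of 29 single genes under 6 settings, 165 kept their call and 9, of col-3, col-39, col-117 and col-167, lost it. No paired analysis was possible because each strain has 1 library, and no replicate could be left out. Depth limits the 132 members with a mean of 5 or less, for which a difference could not be called.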

Other observations

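Among the 132 collagens below the minimum mean, 44 had more raw counts in YBT7, the deeper library, and 21 had more in WT. Summed and normalized, their ratio was 1.14, with an interval (0.853 to 1.52) that includes 1. The highest count of any of them was 12. That was col-96, which lies 627 bp from col-95 on the other strand and had 12 counts in YBT7 and 0 in WT. Set against a floor of 3 WT counts it was 2.67-fold higher, while the exact interval of the ratio had a lower end of 1.85. With 7 counts in YBT7 and 0 in WT, col-155 was next among those seen in YBT7 alone, and in the opposite direction col-149 had 1 count in YBT7 and 6 in WT. These genes were chosen after their values were seen and none passed the minimum mean.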
